A study of Mus musculus with 24 samples.

Results

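Levels of 48 genes of DNA replication and mitosis were followed in mouse neurosphere cultures exposed to a synthetic glucocorticoid. The genes were taken by symbol: 24 act in S phase, when DNA is copied, and 24 in G2 and mitosis, when the copied chromosomes are condensed, attached to the spindle and separated. All 48 were found among 38920 gene entries, and all 48 reached the level required for testing in every comparison. Neurospheres are suspended clusters of dividing neural stem cells and their progeny. Here they came from embryonic day 14.5 cerebral cortex or hypothalamus and were used at passage 3. Female cortex, male cortex, female hypothalamus and male hypothalamus cultures each received 100 nM dexamethasone, or ethanol vehicle in equal volume, for 4 hours, with 3 biological replicates in each of the 8 groups. Strain and genotype are not given in the sources used here. The sources used here do not tell whether a replicate was an embryo, a litter or a pool, so p-values measure only the spread between these samples.

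Cells enter the cycle when cyclin-dependent kinases release the E2F transcription factors, which then drive genes for origin licensing, the replicative helicase, nucleotide synthesis and DNA polymerases. Genes of G2 and mitosis are switched on later, by a MYB-containing complex and FOXM1 acting through a promoter element called the CHR. Their promoters often hold CCAAT boxes as well. Many products of these genes are destroyed by the anaphase-promoting complex as mitosis ends. In the embryonic cortex, progenitors divide near the ventricle, and neurosphere growth depends on the same division machinery. Glucocorticoids act through a receptor that binds DNA, and they are known to slow the division of neural progenitors. In RNA from a whole culture, fewer cells in a phase and less RNA per cell cannot be told apart.

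Promoter sequences from RefSeq (GRCm38.p6, 250 bases before to 50 after each gene's start) were matched by symbol for 39 of the 48 genes, 20 of S phase and 19 of G2 and mitosis. The E2F motif was searched on both strands as TTTCCCGC, TTTCGCGC, TTTGCCGC or TTTGGCGC, the CHR as TTTGAA or TTCGAA, and the CCAAT box as CCAAT. Neighbouring E2F and CCAAT matches can share a base. An E2F match was present in 9 of 20 S phase promoters, in 1 of 19 promoters of G2 and mitosis genes and in 2.32% of all 27025 promoters of this length. A CHR match was present in 4 of 20, in 14 of 19 and in 19.4% respectively, and a CCAAT match in 15 of 20, in 16 of 19 and in 37.9%. The short core of a glucocorticoid receptor site, GAACA, was present in 5 of 20 and 5 of 19, against 41.9% of all promoters, and its palindrome GAACANNNTGTTC in 0 of 20, 0 of 19 and 0.0481%. These matches are descriptions of letters in a window.

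The 250 bases before the start of 5 genes are shown because the results below turn on these genes: 2 S phase genes that fell in male cortex and 3 mitotic genes that rose there. Each runs 5′ to 3′ on the gene's strand, and capitals mark the matches to E2F, CHR and CCAAT motifs. Cdc6 loads the helicase at origins (chr11:98907901-98908150, plus strand) and has 1 E2F match that begins 138 bases before the start. Mcm7 is a helicase subunit (chr5:138171884-138172133, minus strand), with 1 E2F, 1 CHR and 2 CCAAT matches. Ccnf encodes cyclin F (chr17:24251410-24251659, minus strand), with 2 CHR and 2 CCAAT matches, and Bub1b encodes a spindle checkpoint kinase (chr2:118597961-118598210, plus strand), with 1 of each. Top2a encodes topoisomerase II alpha, which untangles chromosomes (chr11:99024190-99024439, minus strand), with 4 CHR and 6 CCAAT matches. For Cdt1, the E2F match begins 33 bases after the start and is not shown.
Cdc6: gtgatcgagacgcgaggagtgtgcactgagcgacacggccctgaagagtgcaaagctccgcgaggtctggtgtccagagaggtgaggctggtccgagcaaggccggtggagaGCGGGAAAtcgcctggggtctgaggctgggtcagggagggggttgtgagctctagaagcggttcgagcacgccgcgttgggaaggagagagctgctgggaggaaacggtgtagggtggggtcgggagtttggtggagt
Mcm7: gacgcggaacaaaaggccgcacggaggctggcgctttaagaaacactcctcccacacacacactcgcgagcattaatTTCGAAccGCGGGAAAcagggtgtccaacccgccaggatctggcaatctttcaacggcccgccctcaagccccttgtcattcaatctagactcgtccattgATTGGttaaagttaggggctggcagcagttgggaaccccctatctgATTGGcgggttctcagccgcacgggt
Ccnf: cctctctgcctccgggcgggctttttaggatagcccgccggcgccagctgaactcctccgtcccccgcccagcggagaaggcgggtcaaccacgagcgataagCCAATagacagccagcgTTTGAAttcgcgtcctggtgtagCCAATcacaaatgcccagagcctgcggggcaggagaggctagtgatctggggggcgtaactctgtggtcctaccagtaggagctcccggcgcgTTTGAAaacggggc
Bub1b: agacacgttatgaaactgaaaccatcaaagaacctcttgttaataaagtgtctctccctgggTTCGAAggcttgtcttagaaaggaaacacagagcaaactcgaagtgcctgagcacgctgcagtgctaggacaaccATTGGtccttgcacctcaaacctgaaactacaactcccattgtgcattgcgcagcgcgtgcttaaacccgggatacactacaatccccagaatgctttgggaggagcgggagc
Top2a: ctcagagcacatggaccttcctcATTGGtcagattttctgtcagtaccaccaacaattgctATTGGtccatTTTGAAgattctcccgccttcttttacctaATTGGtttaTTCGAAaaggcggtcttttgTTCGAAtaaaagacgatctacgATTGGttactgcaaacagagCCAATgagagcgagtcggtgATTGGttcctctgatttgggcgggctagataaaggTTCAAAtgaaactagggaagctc

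Levels are given in reads per M reads (RPM) as the authors normalized them. Libraries held 16.39 to 20.94 M reads in genes in cortex and 16.04 to 25.49 M in hypothalamus. Reads of mt-Rnr2, a ribosomal RNA of mitochondria, made up 1.09% to 2.67% of the total in cortex and 21.3% to 40% in hypothalamus. In the cortex, vehicle libraries had 13179 to 13350 genes at 1 RPM or more and dexamethasone libraries 12808 to 13102, and this difference moves with every cortex result below. Nes and Sox2, which mark neural stem cells, ranged over 537 to 1205 RPM and 285 to 604 RPM in cortex, and over 381 to 869 RPM and 161 to 308 RPM in hypothalamus. Fkbp5, a glucocorticoid target, ranged over 24.7 to 41.1 RPM in vehicle and 296 to 358 RPM in dexamethasone libraries of cortex, and over 27.0 to 37.0 RPM and 156 to 249 RPM in hypothalamus. Of the 48 genes, 13 share exon bases with a gene on the opposite strand, Mcm7, Cdk2, Ccna2 and Kif20a among them, and the sources used here do not tell the strand setting of the counting, so reads of such pairs cannot be told apart. The 5 microglia markers and the 4 erythroid markers stayed below 1 RPM in every group.

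In male cortex, 18 of 24 G2 and mitosis genes rose after 4 hours of dexamethasone and 0 fell, while 2 of 24 S phase genes rose and 7 fell. A gene was called when the limma test across all 13205 genes tested gave a Benjamini-Hochberg adjusted p under 0.05; of all these genes 26.7% were called higher, 20.9% lower and 47.6% in either direction. The median log2 change was 0.35 for the G2 and mitosis genes and 0.01 for the S phase genes, against 0.04 for all genes tested. The 3 dexamethasone libraries lay above the 3 vehicle libraries for 18 of 24 G2 and mitosis genes, compared with 32.4% of all genes. For 8 of 24 S phase genes they lay below, against 24.5%. The authors' deposited table, whose test is not named, listed 0 of the 48 genes, and 2333 genes in all, at an adjusted p under 0.05 in male cortex, though its fold changes were close, with a log2 change of 0.74 for Ccnf (adjusted p = 0.053). edgeR's quasi-likelihood test and DESeq2's Wald test, run on recovered reads, each called 17 of the 24 G2 and mitosis genes higher. Without replicate 3 the limma test called 13 G2 and mitosis genes higher and 5 S phase genes in either direction, and without replicate 1 it called 5 S phase genes.

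Ccnf (chr17:24222198-24251484, minus strand, GRCm38), which marks proteins for destruction in G2, stood at 63.3, 54.2 and 57.6 RPM in vehicle replicates 1, 2 and 3 of male cortex and at 99.7, 94.6 and 97.7 RPM with dexamethasone. The groups did not overlap, and the log2 change of 0.73 ± 0.06 (SE) was the largest rise among the 48 genes (limma, adjusted p = 1.5e-05). Kif20a, a kinesin of the spindle midzone and of cytokinesis, stood at 122, 119 and 109 RPM in vehicle and 169, 182 and 176 RPM in dexamethasone libraries. All 3 dexamethasone libraries were again above the vehicle ones, with a log2 change of 0.59 ± 0.06 (SE) (limma, adjusted p = 2.7e-05). Ccnb1, the cyclin that drives entry into mitosis, was at 161, 149 and 153 RPM in vehicle and 213, 231 and 222 RPM in dexamethasone libraries. Its groups did not overlap, and its log2 change was 0.52 ± 0.05 (SE) (limma, adjusted p = 3.2e-05).

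By role, 5 of 6 genes for mitotic cyclins, CDK1 and its activating phosphatase rose, with Ccna2 (cyclin A2) at a log2 change of 0.39 and Cdc25c at 0.36; Ccnb2 did not pass (0.19, adjusted p = 0.18). In the spindle checkpoint, which holds back anaphase until chromosomes are attached, 3 of 4 rose: Bub1b by 0.47, Bub1 by 0.30 and Ttk by 0.29, with Mad2l1 at 0.06 not called. All 4 mitotic kinases and survivin genes rose within a narrow range: Plk1, Aurka and Birc5 by 0.35 each and Aurkb by 0.30. All 4 spindle genes rose, with Tpx2 at 0.50, Kif11 at 0.46 and Nusap1 at 0.23 beside Kif20a. Of the anaphase-promoting complex partners Ube2c rose by 0.20, and Cdc20 was not called (0.04). Top2a went from 745, 746 and 694 RPM to 1059, 1005 and 1073 RPM, a log2 change of 0.52 ± 0.05 (SE) with no overlap.

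Cenpe and Cenpf, which link chromosomes to the spindle, and Mki67, the proliferation marker Ki-67, were not called in male cortex, where dexamethasone replicate 2 stood apart; they were singled out after their values were seen. Cenpf stood at 224, 229 and 185 RPM in vehicle and at 352, 168 and 311 RPM with dexamethasone, so replicate 2 lay below all vehicle libraries while replicates 1 and 3 lay above them. Mki67 was at 628, 605 and 548 RPM against 891, 549 and 853 RPM, with replicate 2 inside the range of the vehicle libraries and replicates 1 and 3 above it. These are among the longest transcripts of the list. Over 9962 genes, the deviation of that library from its group's mean had a correlation of -0.43 with log2 transcript length, compared with 0.23 and 0.22 in the other two dexamethasone libraries.

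Of 24 S phase genes, 7 fell in male cortex, a share not far from the 20.9% of all genes called lower. Origin licensing factors, Cdk2 and E2f1 were among them. Cdt1 (chr8:122568015-122573554, plus strand, GRCm38), which loads the helicase with Cdc6, stood at 53.02, 50.8 and 51.98 RPM in vehicle and 32.7, 34.9 and 31.8 RPM in dexamethasone libraries. The groups were far apart relative to their spread, and the log2 change was -0.63 ± 0.06 (SE), the largest fall of the list (limma, adjusted p = 2.7e-05). Cdc6 was at 45.2, 40.5 and 37.5 RPM in vehicle and 32.1, 33.5 and 30.8 RPM with dexamethasone. It did not overlap either, with a log2 change of -0.34 ± 0.08 (SE) (limma, adjusted p = 0.005). Cdk2, the kinase of cyclins E and A, went from 71.4, 65.2 and 63.98 RPM to 56.9, 55.9 and 53.8 RPM. Its log2 change was -0.26 ± 0.06 (SE) without overlap (limma, adjusted p = 0.0052). The other four genes that fell were E2f1 (-0.32), Pcna, the polymerase clamp (-0.20), Mcm7 (-0.18) and Gins2, a helicase cofactor (-0.17).

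Both S phase genes that rose make DNA or its precursors. Rrm1, the large subunit of ribonucleotide reductase, stood at 328, 293 and 304 RPM in vehicle and 381, 380.4 and 388 RPM with dexamethasone. Its groups did not overlap, at a log2 change of 0.32 ± 0.05 (SE) (limma, adjusted p = 8.6e-04). Pola1, the catalytic subunit of the primase-associated polymerase, was at 79.2, 78.9 and 75.6 RPM and 104, 82.3 and 94.4 RPM, with the groups apart but dexamethasone replicate 2 close to the vehicle libraries. Its log2 change was 0.25 ± 0.08 (SE) (limma, adjusted p = 0.022), and the call was lost in 9 alternatives, edgeR's test (adjusted p = 0.053), reads outside ribosomal RNA-like genes (0.060) and the omission of replicate 1 (0.099) or replicate 3 (0.14) among them. The helicase subunits Mcm2 to Mcm6 ranged from -0.05 to 0.13 and none was called, and Rrm2, the small subunit of the reductase, was at 0.01 (adjusted p = 0.87).

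**Figure D1:**
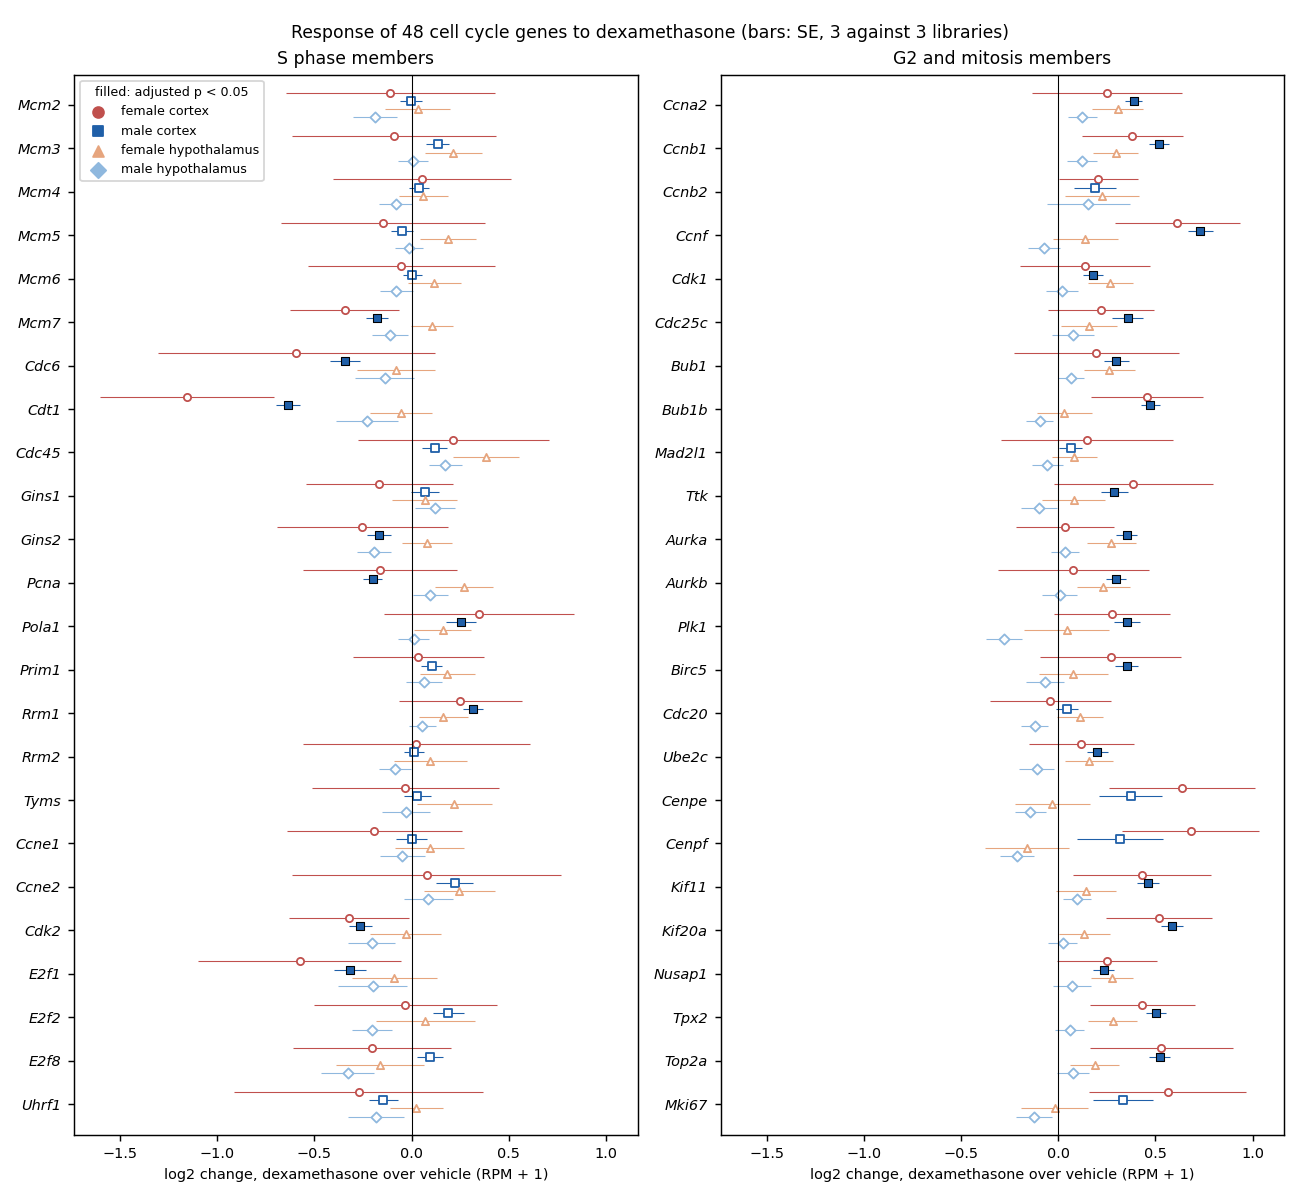
Log2 change of each of the 48 genes with dexamethasone over vehicle (x axis, on the log2(RPM + 1) scale) in the 4 kinds of culture, S phase genes on the left and G2 and mitosis genes on the right; points are means of 3 against 3 libraries, bars are SE, and filled points have an adjusted p under 0.05 without the replicate block. In male cortex 18 G2 and mitosis genes are filled to the right of 0. Most female cortex points of that phase also lie right of 0, with wide bars. Sizes differ for some genes: Cdt1 is at -1.16 in female and -0.63 in male cortex, and Aurka and Aurkb rise less in female cortex. The median of the G2 and mitosis genes was 0.15 in female and 0.01 in male hypothalamus, against 0.27 and 0.35 in cortex. Some genes of either phase, such as E2f8 in male and Aurka in female cultures, changed more in hypothalamus than in cortex.

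In female cortex the same test called 0 of 24 genes in either phase, against 4.42% of all 13314 genes tested (1.4% higher, 3.02% lower). At an unadjusted p under 0.05 it gave 1 S phase gene and 0 G2 and mitosis genes, and edgeR and DESeq2 called 0. The median log2 change was 0.27 for G2 and mitosis genes and -0.13 for S phase genes, against 0.02 for all genes. The cultures differed widely before treatment: vehicle replicate 1 was the highest and replicate 2 the lowest library for all 48 genes, with a median ratio of 2.66 between them for S phase and 1.83 for G2 and mitosis genes. Astrocyte markers ran the other way, with sums of 1195, 2538 and 2007 RPM in replicates 1, 2 and 3. Gfap, the astrocyte filament, spanned 3.95 to 392 RPM. The order was not particular to astrocyte markers, as neural stem cell, neuron and oligodendrocyte lineage sums shared it. In replicates 1, 2 and 3 they were 6043, 7141 and 6858 RPM, 741, 999 and 930 RPM, and 1257, 1494 and 1321 RPM. The far lower endothelial sum and the contractile and pericyte sum did not follow it.

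Libraries of female cortex with the same replicate number deviated together, with correlations of 0.87, 0.82 and 0.49. Replicates 2 and 3 were less distinct from each other. Dexamethasone replicate 3 also correlated at 0.49 with vehicle replicate 2, and dexamethasone replicate 2 at 0.46 with vehicle replicate 3. Different-number pairs with replicate 1 ran from -0.85 to -0.57. The replicate number was also used as a block. With the block, 15 of 24 G2 and mitosis genes rose and 0 fell, 2 of 24 S phase genes rose and 6 fell, while 19.9% of all genes were called higher and 18.2% lower. G2 and mitosis genes were higher in all 3 cultures for 21 of 24, against 35.6% of all genes, and S phase genes were lower in all 3 for 10 of 24, against 29.9%. With the block, leaving out replicate 3 gave 9 G2 and mitosis and 4 S phase genes, and leaving out replicate 1 gave 14 and 12. In female cortex the authors' deposited table held 2075 genes past an adjusted p of 0.05, of which 1 was among the 48, Cdt1, which was lower (log2 change -1.12, adjusted p = 0.0088).

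Cdt1 stood at 57.6, 26.3 and 42.2 RPM in vehicle replicates 1, 2 and 3 of female cortex and at 31.98, 10.4 and 15.6 RPM with dexamethasone. It was lower in every culture although the groups overlapped, with a log2 change of -1.16 ± 0.45 (SE) without the block (limma, adjusted p = 0.21) and an SE of 0.11 with it (adjusted p = 2.1e-04). Ccnf was at 62.9, 30.8 and 42.98 RPM in vehicle and 90.9, 48.6 and 69.2 RPM with dexamethasone, higher in each culture, at a log2 change of 0.61 ± 0.32 (SE; limma, adjusted p = 0.35, or 4.2e-04 with the block). Mcm7 was lower in each culture, at 254, 153 and 184 RPM against 214, 115 and 142 RPM, a log2 change of -0.34 ± 0.28 (SE; limma, adjusted p = 0.56, or 0.0039 with the block). Cenpf was higher in each, at 174, 107 and 129.7 RPM against 323, 131 and 237 RPM, a log2 change of 0.68 ± 0.35 (SE; limma, adjusted p = 0.34, or 0.0025 with the block).

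With the block, the other S phase genes that fell in female cortex were Cdc6 (-0.59), E2f1 (-0.58), Cdk2 (-0.32) and Uhrf1, which copies DNA methylation after replication (-0.27), and Pola1 (0.35) and Rrm1 (0.25) rose. The 15 G2 and mitosis genes that rose with the block included Cenpe (0.64), Mki67 (0.56), Top2a (0.53), Kif20a (0.52), Bub1b (0.46), Kif11 and Tpx2 (0.43 each) and Ccnb1 (0.38). Aurka (0.04), Aurkb (0.08) and Cdc20 (-0.04) were not among them.

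**Figure D2:**
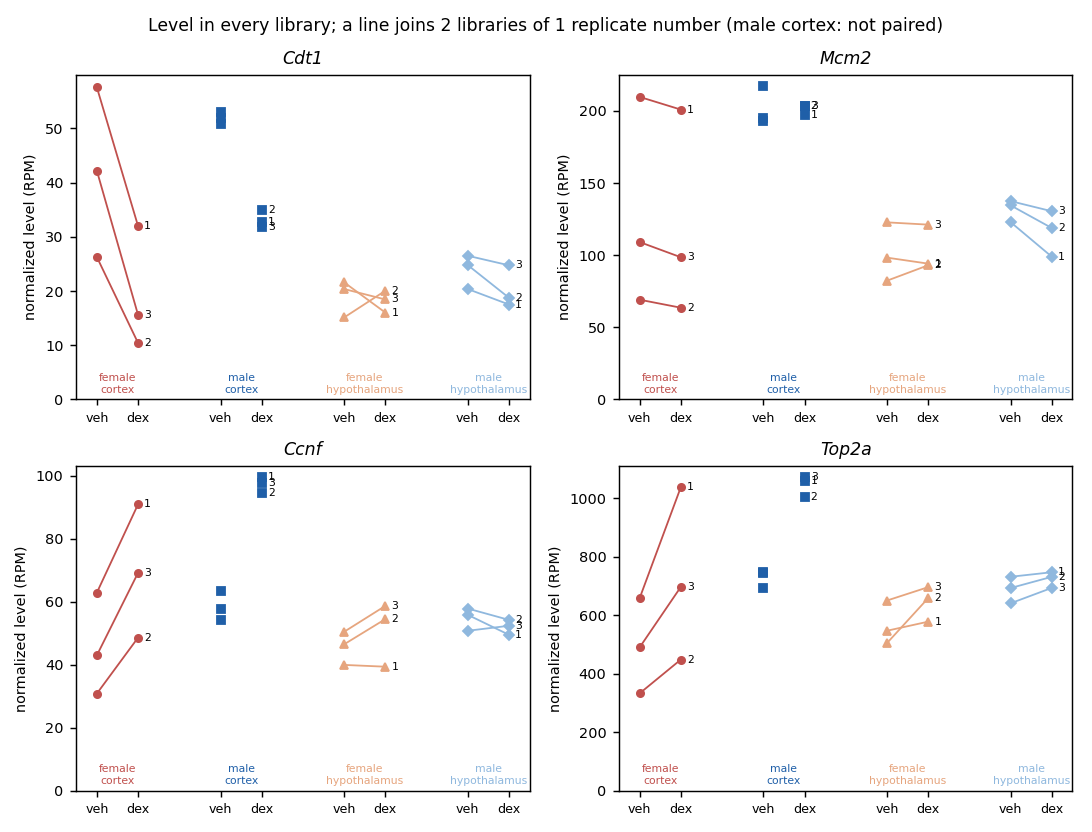
Level in RPM (y axis, from 0) of Cdt1, Mcm2, Ccnf and Top2a in all 24 libraries. A line joins the vehicle and dexamethasone libraries of 1 replicate number, except in male cortex, where pairing was not assumed. In female cortex the lines start at different heights yet all run downward for Cdt1 and upward for Ccnf and Top2a, and in male cortex the 2 groups of points are apart in the same directions. In hypothalamus all 6 lines of Top2a run upward and the 3 male lines of Cdt1 downward, while the female lines of Cdt1 and the lines of Ccnf go both ways.

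In hypothalamus, 0 of 24 genes of either phase were called in either sex, against 0.841% of 12491 genes tested in female cultures (0.793% higher, 0.048% lower) and 0.226% of 12403 in male cultures, all of them higher; edgeR and DESeq2 called 0 as well. At an unadjusted p under 0.05 the test gave 3 G2 and mitosis genes and 0 S phase genes in female cultures, and 2 and 1 in male cultures. The median log2 changes were 0.09 for S phase and 0.15 for G2 and mitosis genes in female cultures, and -0.08 and 0.01 in male cultures. With the replicate block, which the same-number correlations of 0.61 to 0.77 allow, the female count stayed at 0, with 7.14% of all genes called, and the male count was 1 S phase gene, E2f8, and 2 G2 and mitosis genes, Plk1 and Cenpf, all lower, against 8.01% of all genes called lower. These counts rest on single replicates: with the block and without replicate 2, female hypothalamus had 6 G2 and mitosis genes higher and 2 S phase genes lower, and without replicate 3 it had 2 S phase genes higher. In male hypothalamus the same fit without replicate 1 called 3 S phase genes higher and 2 G2 and mitosis genes lower, and without replicate 3 it called 2 S phase genes and 1 G2 and mitosis gene lower.

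Ccnb1 had the smallest p among G2 and mitosis genes of female hypothalamus, at 106, 94.1 and 117 RPM in vehicle and 117, 143 and 129.7 RPM in dexamethasone libraries. The log2 change was 0.30 ± 0.12 (SE) (limma, adjusted p = 0.52), and the gap was widest in replicate 2. The same was seen for Nusap1, a microtubule bundler, at 104, 95.8 and 116 RPM against 119, 140.4 and 123 RPM (0.28 ± 0.11 (SE)). Among S phase genes, Cdc45, the helicase activator, was at 30.1, 20.6 and 31.2 RPM against 31.8, 37.7 and 36.7 RPM (0.38 ± 0.17 (SE)). Pcna was at 136, 97.2 and 134 RPM against 139.7, 162 and 137 RPM (0.27 ± 0.15 (SE)), and vehicle replicate 2 was again the lowest library.

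In male hypothalamus, Plk1, the kinase that drives centrosome maturation and spindle assembly, was at 44.7, 48.1 and 47.1 RPM in vehicle and 36.7, 35.7 and 42.6 RPM with dexamethasone. The groups did not overlap, at -0.28 ± 0.09 (SE) on the log2 scale (limma, adjusted p = 0.52, or 0.031 with the block). Cenpf was at 184, 210.0 and 216 RPM against 165, 179 and 181 RPM (-0.21 ± 0.09 (SE); adjusted p = 0.62, or 0.031 with the block, in limma). E2f8, a repressor among the E2F factors, was at 23.2, 24.7 and 24.00 RPM against 16.1, 18.1 and 23.00 RPM (-0.33 ± 0.14 (SE); adjusted p = 0.63, or 0.048 with the block, in limma). Replicate 3 contributed least to its difference. Gins2 was at 25.5, 24.4 and 24.9 RPM against 23.3, 21.2 and 20.7 RPM (-0.19 ± 0.09 (SE)), not called with either fit.

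Summed over the 24 G2 and mitosis genes, the level changed by 44.5%, 19.1% and 37.0% in female cortex replicates 1, 2 and 3, and the sum over the 24 S phase genes by -0.65%, -8.09% and -7.96%. The ratio of mitotic to S phase sums was higher with dexamethasone in all 3 female cultures, from 1.29, 1.74 and 1.59 to 1.88, 2.25 and 2.37. Same-number correlations in male cortex were 0.36, 0.021 and 0.39. Pairing by number was not assumed there, so those libraries are given as groups. There the G2 and mitosis sum ranged over 3815 to 4082 RPM in vehicle and 4808 to 5476 RPM in dexamethasone libraries, which did not overlap, and the S phase sum over 2752 to 3023 RPM and 2831 to 2894 RPM, which did. The ratio was 1.35 to 1.46 in vehicle and 1.69 to 1.91 in dexamethasone libraries of male cortex. In hypothalamus the change in the G2 and mitosis sum ranged from -3.83% to 22.1%, and female replicate 2 stood apart with 31.5% for S phase and 22.1% for mitotic genes.

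**Figure D3:**
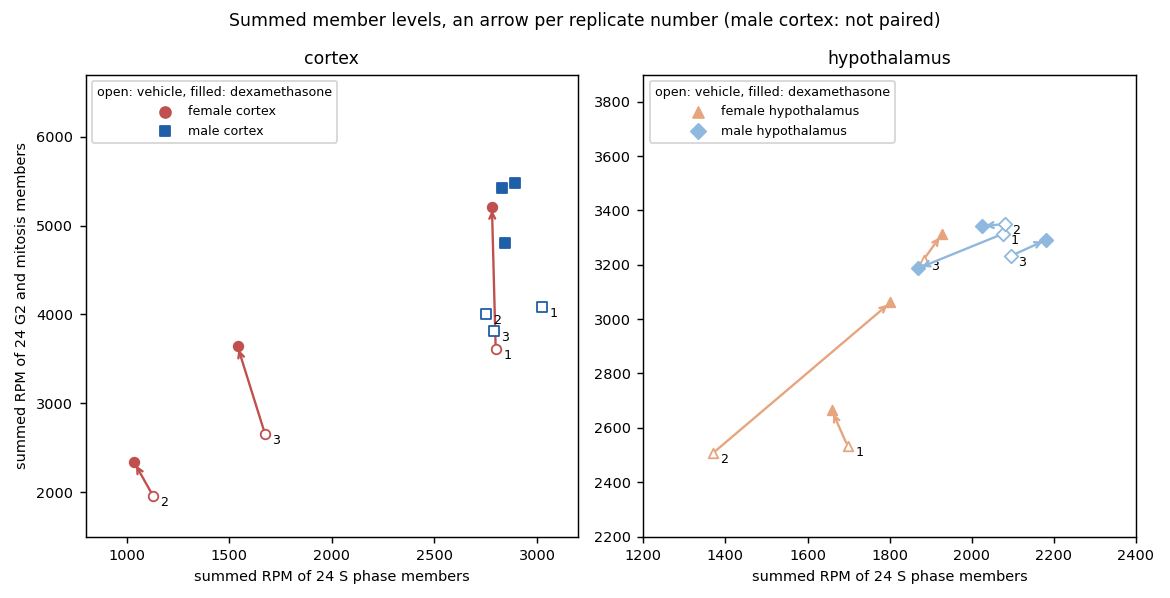
Summed RPM of the 24 G2 and mitosis genes (y axis) against that of the 24 S phase genes (x axis), an arrow from the vehicle (open) to the dexamethasone library (filled) of each replicate number; the cortex and hypothalamus panels have different axis ranges that do not start at 0. Male cortex libraries have no arrows, as pairing by number was not assumed there. The 3 filled squares lie above the 3 open ones. In female cortex the 3 arrows point upward, with increases of 19.1% to 44.5% in the mitotic sum, and in hypothalamus the arrows are short except for female replicate 2.

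Markers of other cells moved with treatment in cortex too. In male cortex the summed level of 6 neuron markers was 783 to 842 RPM in vehicle and 1025 to 1199 RPM in dexamethasone libraries, and in female cortex 741 to 999 and 1155 to 1377 RPM. That of 6 oligodendrocyte lineage markers was 1179 to 1283 and 1754 to 1807 RPM in male and 1257 to 1494 and 1592 to 1993 RPM in female cortex. The 5 astrocyte markers summed to 1343 to 1468 and 1809 to 2165 RPM in male cortex, while in female cortex the groups overlapped, at 1195 to 2538 and 1840 to 3745 RPM. The summed level of the 5 endothelial markers was lower with dexamethasone. It was 5.47 to 6.87 and 2.69 to 3.43 RPM in male and 4.62 to 5.24 and 2.74 to 2.95 RPM in female cortex. These sums rest on few genes near the floor. In dexamethasone libraries of either sex, 4 of the 5 markers stayed under 1 RPM. In vehicle libraries 2 did so in male and 3 in female cortex. In hypothalamus the ranges of all of these sums overlapped between treatments in both sexes. The 7 neural stem cell markers were lower in male hypothalamus, at 5345 to 5694 RPM in vehicle and 4874 to 5273 RPM with dexamethasone. The summed level of the 4 contractile and pericyte markers was lower in male cortex, at 8.94 to 10.2 and 5.89 to 8.18 RPM. Of these markers, Pdgfrb and Rgs5 stayed under 1 RPM in all male cortex libraries. Both of these sums overlapped between treatments in the other cultures. The neuron marker Stmn2 stayed under 1 RPM in every library. The part of these shifts in the results for the 48 genes was not tested.

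The responses of the 2 regions were compared within each sex by an interaction term, on reads rescaled by TMM over the 12 libraries concerned. In male cultures, 10 of 24 G2 and mitosis genes differed, all with a lower response in hypothalamus, against 3.68% of 13452 genes tested called lower, 4.52% higher and 8.2% in either direction. Of the S phase genes 0 of 24 were called by limma, 5 had an unadjusted p under 0.05, and DESeq2 called 2. The median difference was -0.38 for G2 and mitosis genes and -0.05 for S phase genes. Ccnf had the largest, with a log2 difference of -0.80 ± 0.10 (SE) (limma, adjusted p = 6.5e-04); its male hypothalamus libraries were at 55.8, 57.8 and 50.8 RPM in vehicle and 49.5, 54.2 and 52.4 RPM with dexamethasone. Bub1b differed by -0.57 ± 0.07 (SE) (limma, adjusted p = 6.3e-04), at 96.2, 101 and 93.3 RPM and 89.1, 92.04 and 90.8 RPM in male hypothalamus against 124, 122 and 118 RPM and 163, 173 and 172 RPM in male cortex. The other eight were Plk1, Kif20a, Top2a, Tpx2, Birc5, Ccnb1, Kif11 and Aurka. Without replicate 3 of male cortex 3 of the 24 differed, and without replicate 1 of male cortex 5.

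In female cultures the difference between regions was called for 0 of 24 genes of either phase without a block, against 0.692% of 13582 genes, and 0 had an unadjusted p under 0.05 in limma. With the block, which the pairing in both tables allows, 7 of 24 G2 and mitosis genes had a lower response in hypothalamus, against 8.27% of all genes, and 2 of 24 S phase genes had a higher one, against 7.21%. The S phase genes were Cdt1, with a log2 difference of 1.05 ± 0.20 (SE) with the block (limma, adjusted p = 0.0087, or 0.47 without it), and Mcm7. Cenpf, of the G2 and mitosis genes, had -0.88 ± 0.16 (SE) (limma, adjusted p = 0.0065, or 0.50 without it), followed by Mki67, Bub1b, Cenpe, Ccnf, Kif20a and Top2a. Without replicate 1 of female hypothalamus 3 of the 24 G2 and mitosis genes differed with the block, and without replicate 3 of female cortex 4.

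The responses of the 2 sexes were compared in the same way. In cortex and in hypothalamus 0 of 24 genes of either phase were called, with 0% of all 13680 and 12843 genes called. The genes with the smallest p in cortex were Cdt1, with a male minus female response of 0.48 ± 0.51 (SE) (limma, adjusted p = 1.00), and Aurka, with 0.28 ± 0.29 (SE). In hypothalamus they were Gins2, with -0.27 ± 0.15 (SE), and Ube2c, which primes targets of the anaphase-promoting complex, with -0.27 ± 0.15 (SE) (limma, adjusted p = 1.00). With the block, which both hypothalamus tables allow, the SE was 0.13 for Gins2 and 0.11 for Ube2c, with 0% of all genes called. In cortex the block gave an SE of 0.14 for Cdt1 and 0.098 for Aurka and also called 0%. That fit also joined the male cortex libraries by replicate number, a pairing that was not assumed elsewhere. The standard errors of either fit leave room for differences between the sexes.

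Transcript length is given here because changes ran with it. Over all tested genes, log2 change and log2 length of the longest annotated transcript (GENCODE vM21) correlated at 0.11 in male cortex, 0.12 in female cortex, -0.22 in female and -0.19 in male hypothalamus, and at -0.26 and -0.23 for the region difference in female and in male cultures, as a description across genes. The median longest transcript was 3406 bases for S phase and 3474 bases for G2 and mitosis genes. The median change of all genes of like length was then taken off. The median of the G2 and mitosis genes became 0.30 in male cortex and 0.27 in female cortex. It became -0.31 for the male and -0.12 for the female region difference. Cenpf and Mki67 have transcripts of 10001 bases or more. All genes of that class had a median of -0.14 in male hypothalamus and -0.30 for the female region difference. The class of Cenpe (7001 to 10000 bases) had -0.25 for the latter.

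**Figure D4:**
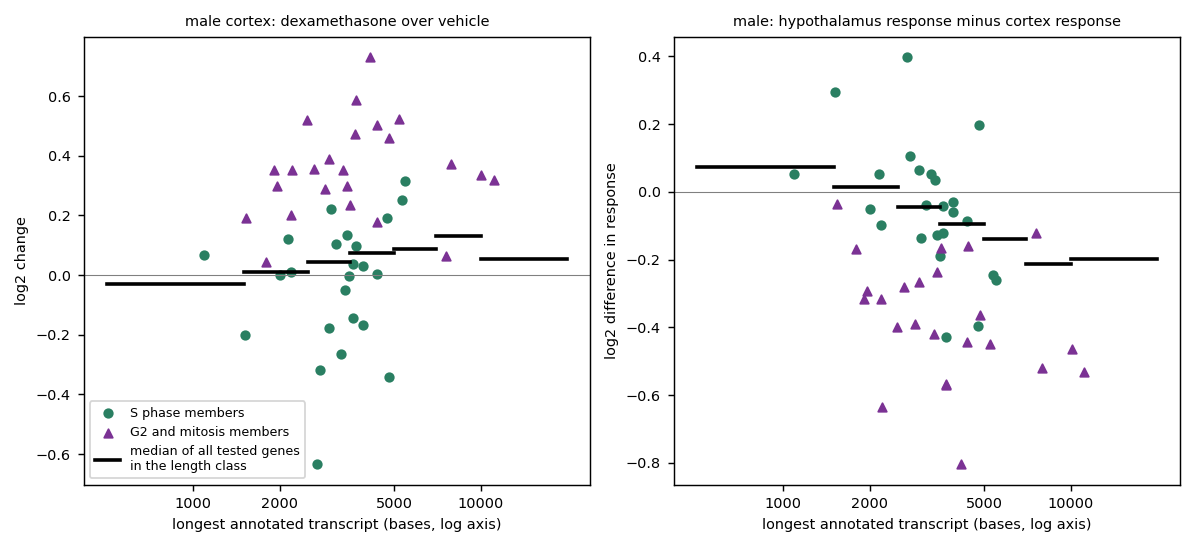
Log2 change in male cortex (left) and log2 difference between male regions in response (right) against the longest annotated transcript in bases (log axis); circles are S phase genes, triangles G2 and mitosis genes, and horizontal lines the median of all tested genes in each of 7 length classes. The G2 and mitosis genes lie above the class medians in male cortex for most lengths, where their median was 0.35.

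The wider cell cycle lists were counted beside the 48 genes in male cortex, where 26.7% of all genes were called higher and 20.9% lower. Of 50 other mitosis genes 31 were called higher and 3 lower, with Kif14 at 0.65 and Prc1, a midzone bundler, at 0.47, and with Gtse1 at -0.84 and Ckap2 at -0.39 among the lower. Of 45 other replication genes 12 were higher and 8 lower, with Orc3 at 0.40 and Slbp, the histone mRNA binder, at -0.37, shares near those of all genes. Of 17 cell cycle transcription factors 7 were higher and 3 lower, with Rbl2, a retinoblastoma family member, at 0.76 and Mybl1 at -1.43. Among 12 G1 cyclins, kinases and CDK inhibitors 5 were higher and 3 lower, including Cdkn1a, the inhibitor p21, at -1.08 and Ccnd1, cyclin D1, at -0.58. Of 7 checkpoint kinases and CDK brakes 1 was higher, Atm, and 1 lower, Chek1, at 0.38 and -0.31.

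In female cortex the same lists gave 1 higher mitosis gene, Ckap5, a microtubule polymerase, at 0.47, and 1 lower factor, Mybl1, at -0.89. With the block, under which 19.9% of all genes were called higher and 18.2% lower, 22 of 50 other mitosis genes were higher and 3 lower. The other lists then gave 10 higher and 7 lower of 45 replication genes, 4 and 2 of 17 transcription factors, 3 and 3 of 12 G1 genes, and 2 and 2 of 7 checkpoint kinases and CDK brakes. With the block Cdkn1a fell by 1.13 and Ccnd1 by 1.25 on the log2 scale. In hypothalamus 0 of the 131 genes of these lists were called without the block. With it, 4 were higher and 1 lower in female cultures, among them Cdkn1a at 0.50, Cdkn2b, another CDK inhibitor, at 0.45 and Ccnd2, cyclin D2, at -0.67, against 4.24% of all genes called higher and 2.91% lower. In male cultures 3 were higher and 11 lower with it, among them Ccnd2 at -0.74, Mybl1 at -0.34 and Ccnd1 at -0.31, against 5.09% higher and 8.01% lower. In both sexes the listed genes were thus called at shares near or below those of all genes. Cdkn1a differed between male regions by 1.37, a higher response in hypothalamus.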

How the data were processed

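RNA of 24 mouse neurosphere libraries was measured by stranded total RNA sequencing, per the labels' protocols, in 8 groups of 3. The submitters' processing notes name TopHat2 (versions 2.0.13 and 2.0.9), HTSeq and GRCm38; the annotation and strand setting are not given in the sources used here. The authors deposited, per library, a normalized signal in reads per M for 38924 entries, with log2 fold changes and p-values of their own, the former made by edgeR per the file headers. Every value was a whole multiple of 1 read (tolerance 0.01 read, 100% of values), so reads were recovered. Date-named entries numbered 27, and 4 with shared names were left out. No per-sample column was unused (0).

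A gene was tested if 3 or more of 6 libraries reached 1 RPM, by limma 3.58.1 (R 4.3.3, trend, no block) on log2(value + 1), a scale that understates changes of low genes. Differences between sexes and regions were interaction terms on recovered reads after TMM scaling over 12 libraries. Same-numbered libraries were paired where each same-number correlation of deviations exceeded 0.1, as in female cortex and both hypothalamus tables (0.49 to 0.87), but not in male cortex, where replicate 2 had 0.021. Alternatives were the block, pseudocounts of 0.5 and 4, no filter, a filter of 5 RPM, TMM or DESeq2 scaling, reads outside ribosomal RNA-like genes (mt-Rnr1, mt-Rnr2, Gm26924, Lars2), edgeR 4.0.16, DESeq2 1.42.0 and leaving out each replicate or library. Added after seeing the data were edgeR with the block, the block without each replicate and a correction by 7 transcript length classes. Intervals are SE. The scripts were tested on simulated data.

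The 48 genes and the lists were chosen with earlier results of these data known. Values are given for the up to 3 called genes in each direction and phase with the smallest adjusted p, or the 2 with the smallest p where none was called, and the 2 with the smallest p of each difference.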

Additional observations from a re-analysis of the deposited data

Results flagged for a closer look

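For 10 G2 and mitosis genes the response to dexamethasone differed between the regions of male cultures by a test of the difference itself, the limma interaction term at an adjusted p under 0.05. The log2 response in hypothalamus minus that in cortex was -0.80 for Ccnf, -0.63 for Plk1, -0.57 for Bub1b and -0.57 for Kif20a. It was -0.45 for Top2a, -0.44 for Tpx2, -0.42 for Birc5, -0.40 for Ccnb1, -0.36 for Kif11 and -0.32 for Aurka. The regions also differ in mt-Rnr2 share and in the number of genes at 1 RPM or more, and the part of these in the differences was not tested.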

How the results depend on the processing

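Counts of called genes kept within 1.5 times their main value, with no change of direction, under the pseudocounts, filters, rescaling and ribosomal RNA-like exclusion for every comparison. DESeq2 called 2 S phase genes for the male region difference against 0. The replicate block raised counts of female cortex to 8 S phase and 15 G2 and mitosis genes from 0 (edgeR with the block 8 and 16). It raised those of male hypothalamus to 1 and 2 (edgeR 2 and 2) and of the female region difference to 2 and 7 (edgeR 2 and 6). The count of S phase genes for the male region difference rose to 5 (edgeR 5). In male cortex, where pairing by number was not assumed, the block gave 9 S phase and 20 G2 and mitosis genes against 9 and 18. The block there called 29.2% of all genes higher and 22.8% lower. It moved no other count by over 1.5 times.

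Without 1 replicate or 1 library, counts ranged as follows. Without the block they were 0 to 1 for S phase genes of female cortex, 5 to 9 for S phase and 13 to 20 for G2 and mitosis genes of male cortex, and 0 to 2 and 3 to 13 for the male region difference. With the block and without 1 replicate they were 4 to 12 and 9 to 15 (14 without replicate 1) for S phase and for G2 and mitosis genes of female cortex, 5 to 11 and 13 to 21 of male cortex, 1 to 2 and 0 to 6 of female hypothalamus (6 without replicate 2), and 0 to 3 and 0 to 2 of male hypothalamus. For the region differences they were 1 to 2 and 3 to 8 in female and 0 to 5 and 8 to 16 in male cultures, and for the sex difference in cortex 0 to 1 S phase genes.

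Pola1 in male cortex lost its call in 9 alternatives, with log2 changes of 0.18 to 0.26. The cause of these shifts was not tested. All 48 genes passed the filter in every comparison, so depth removed none of them; the spread between female cortex cultures widened the standard errors there.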

Other observations

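For the G2 and mitosis genes of male cultures, which region had the higher vehicle level depended on the scale. In deposited RPM the G2 and mitosis sum of male vehicle libraries was 3815 to 4082 in cortex and 3233 to 3350 in hypothalamus. After one TMM scaling over all 24 libraries, that sum was 3114 to 3302 in cortex and 4093 to 4106 in hypothalamus. On that scale 17 of the 24 G2 and mitosis genes were higher in all male hypothalamus vehicle libraries than in all cortex ones. Another 4 were lower, against 29.0% higher and 30.5% lower of 13049 genes. Of the S phase genes 9 were higher and 3 lower. In female cultures 9 G2 and mitosis and 2 S phase genes were higher, against 23.9% of 13129 genes, and the other 15 and 22 overlapped.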
